A study of Mus musculus with 4 samples.

Results

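The 10 genes described here mark T cells and their regulatory subset, and were chosen by name: Cd2, Cd3e, Cd3g, Cd6 and Trat1 as pan T cell genes, and Foxp3, Ctla4, Il2ra, Icos and Il2rb as regulatory T cell genes. The choice was made with earlier results of these data known. They were 10 of 18193 genes on the array and were carried by 15 of 34945 probe sets with 1 gene symbol, and for each gene the probe set with the highest mean signal over the arrays was taken. RNA came from skin of female wild-type BALB/c mice to which calcipotriol (MC903), an analogue of vitamin D, had been applied (MC903, 2 arrays), or ethanol (EtOH), its vehicle (Control, 2 arrays). All mice, Control included, had before that been sensitised on the ear with ovalbumin (OVA) together with MC903 and given OVA by mouth, and a second oral dose of OVA followed the application, so the comparison is of renewed MC903 against vehicle in mice that had all met MC903. The labels give no age, and do not say whether an array held 1 animal or several or whether replicates were separate animals, so a p-value here reflects only how far these arrays spread.

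T cells recognise antigen through the T cell receptor, which signals through the CD3 chains and is tuned by adhesion and co-stimulatory receptors. Regulatory T cells depend on the transcription factor FOXP3, carry the inhibitory receptor CTLA-4 and the high-affinity interleukin-2 receptor, and restrain inflammation. In mouse skin they are resident beside effector T cells and gamma delta T cells of the epidermis. Activated conventional T cells also make CTLA-4, ICOS and the interleukin-2 receptor chains, so only Foxp3 among these genes is largely particular to the regulatory subset. In whole skin, a change in the number of T cells and a change in RNA per T cell cannot be told apart.

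Signals are linear array intensities scaled to a common mean, with a median probe set of 90.2 and 99.6 on the MC903 arrays and 109 and 99.7 on the Control arrays. The TrpnX controls, which probe bacterial transcripts, reached a signal of 24.0 and served as a guide to background. The labelled tissue carried its own markers, with a summed signal of 8 skin markers of 207800 and 206400 on the MC903 arrays and 188900 and 179500 on the Control arrays. Differences are given as MC903 minus Control on the scale of log2(signal + 16), which understates the change of dim genes, with a standard error and a 95% interval from limma.

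Every one of the 10 genes had a higher signal on both MC903 arrays than on either Control array, as had 21.6% of all genes. Of the 10 genes, 6 were above the TrpnX range on all 4 arrays. Among the CD3 chains, Cd3g, which encodes the gamma chain, had signals of 574.0 and 424.3 on the MC903 arrays, against 282.9 and 333.1 on the Control arrays. Cd3e, which encodes the epsilon chain, had 194.6 and 136.9 on the MC903 arrays, against 101.5 and 52.8 on the Control arrays. The groups did not overlap for either chain, but the lower MC903 array stood close above the higher Control array for both. The differences were 0.66 ± 0.22 (SE, n = 2 per group) for Cd3g and 0.997 ± 0.34 for Cd3e, with limma adjusted p of 0.303 and 0.308. Without Control replicate 2 the difference of Cd3e was 0.61.

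Cd2, an adhesion receptor through which T cells bind CD48 on other cells in the mouse, had 302.2 and 293.3 on the MC903 arrays, against 83.0 and 126.1 on the Control arrays. Cd6, a scavenger receptor family protein that binds ALCAM, had 96.7 and 85.1 on the MC903 arrays, against 7.32 and 9.29 on the Control arrays. Trat1, an adaptor that associates with the receptor complex, had 119.0 and 112.2 on the MC903 arrays, against 3.10 and 27.9 on the Control arrays. In these genes the MC903 arrays lay near each other, and Cd6 on both Control arrays and Trat1 on Control replicate 1 lay within the range of the TrpnX controls. The differences were 1.40 ± 0.23 (95% interval 0.78 to 2.03) for Cd2, 2.14 ± 0.16 (1.70 to 2.58) for Cd6 and 2.18 ± 0.44 (1.01 to 3.36) for Trat1. Against the highest TrpnX signal of 24.0, Cd6 was at least 3.79-fold higher in MC903 skin (mean log2 of both MC903 signals), a bound set by background in Control skin. The limma adjusted p were 0.178 for Cd2, 0.102 for Cd6 and 0.2 for Trat1.

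**Figure D1:**
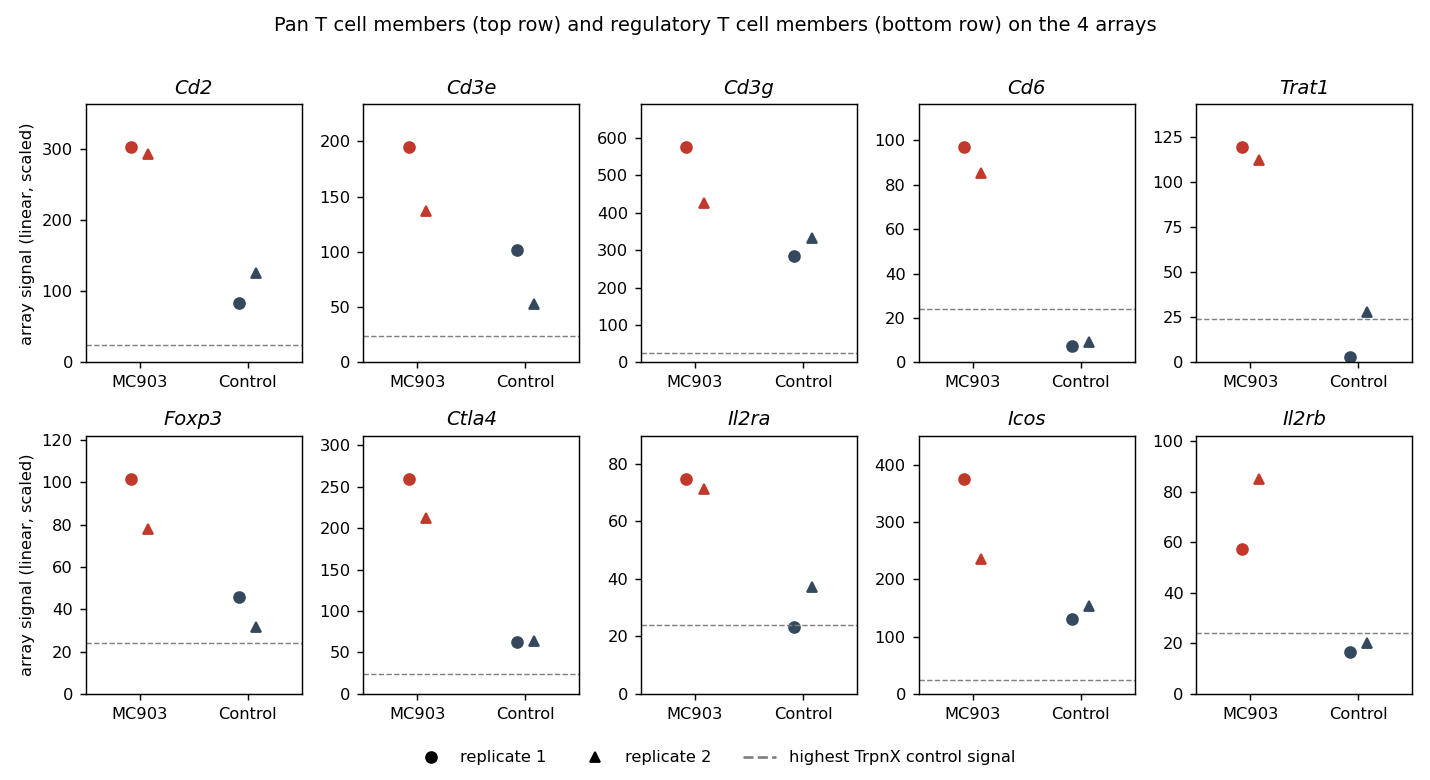
Linear scaled array signals of the 10 genes, with MC903 left of Control in each panel, circles for replicate 1, triangles for replicate 2 and a dashed line at the highest TrpnX control signal (24.0). In all 10 panels both MC903 arrays lie above both Control arrays, and for Cd6 and Il2rb both Control arrays lie under the dashed line.

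Among the regulatory T cell genes, Foxp3 had 101.6 and 78.1 on the MC903 arrays, against 45.9 and 31.7 on the Control arrays. Ctla4, whose product competes with CD28 for CD80 and CD86, had 259.3 and 212.3 on the MC903 arrays, against 63.2 and 64.2 on the Control arrays. Icos, a co-stimulatory receptor of activated T cells, had 375.3 and 236.0 on the MC903 arrays, against 130.3 and 153.5 on the Control arrays. All 3 genes were above the TrpnX range on every array, and the Control arrays of Ctla4 were nearly equal. Their differences were 0.95 ± 0.23 (95% interval 0.34 to 1.56) for Foxp3, 1.65 ± 0.18 (1.18 to 2.13) for Ctla4 and 0.996 ± 0.27 (0.26 to 1.73) for Icos, with limma adjusted p of 0.23, 0.136 and 0.257.

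Of the interleukin-2 receptor chains, Il2ra, which encodes the alpha chain of the high-affinity receptor, had 74.7 and 71.2 on the MC903 arrays, against 23.3 and 37.3 on the Control arrays. Il2rb, which encodes the beta chain shared with the interleukin-15 receptor, had 57.2 and 85.04 on the MC903 arrays, against 16.5 and 20.1 on the Control arrays. Il2rb was the 1 gene of the 10 with a higher signal on MC903 replicate 2 than on MC903 replicate 1, and both of its Control signals were within the TrpnX range, as was Il2ra on Control replicate 1. The differences were 0.96 ± 0.21 for Il2ra and 1.33 ± 0.22 for Il2rb, with limma adjusted p of 0.214 and 0.179. Il2rb was at least 2.91-fold higher in MC903 skin against the same TrpnX signal.

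None of the 10 genes passed limma's adjusted p of 0.05, with adjusted p of 0.102 to 0.308, and percent called over all 18193 genes was 0% in each direction, the lowest adjusted p being 0.0561. At an unadjusted p under 0.05, 10 of 10 were higher in MC903, beside 6.82% of all genes higher and 8.39% lower. The genes were chosen with earlier results of these data known, so this count and those that follow describe them and do not test the list. The groups did not overlap, with MC903 higher, in 10 of 10, beside 21.6% of all genes with MC903 higher and 28.2% with MC903 lower. With each MC903 array set against each Control array, all 4 ratios were at least 2-fold in 5 of 10 (Cd2, Cd6, Trat1, Ctla4 and Il2rb), beside 1.16% of all genes. The median difference of the 10 was 1.16, against a median of -0.04 over all genes, and ranks by difference ran from 78 to 1431 of 18193. With a prior variance that follows the signal, limma called Cd6 alone of the 10 (adjusted p = 0.047), where 0.539% of all genes were called higher and 0.385% lower.

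Several genes had further probe sets. The other 2 probe sets of Icos had 243 and 193, and 121 and 135, on the MC903 arrays, against 94.9 and 93.6, and 33.4 and 49.2, on the Control arrays. The other probe set of Il2ra had 71.6 and 54.9 on the MC903 arrays, against 14.8 and 16.6 on the Control arrays, and that of Il2rb had 33.1 and 54.5, against 20.1 and 16.2. None of these overlapped between groups. The other probe set of Trat1, in contrast, had 63.2 and 36.3 on the MC903 arrays, against 42.8 and 42.1 on the Control arrays, and overlapped, so the difference of Trat1 rests on 1 of its 2 probe sets.

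Regulatory T cell genes were set beside pan T cell genes within each array. The mean log2 level of the 5 pan T cell genes was 7.83 and 7.59 on the MC903 arrays and 6.11 and 6.36 on the Control arrays, a difference of 1.48. That of the 5 regulatory T cell genes was 7.26 and 7.09 on the MC903 arrays and 5.95 and 6.04 on the Control arrays, a difference of 1.18. Regulatory minus pan T cell genes was -0.57 and -0.50 on the MC903 arrays and -0.15 and -0.32 on the Control arrays, so the regulatory genes stood lower beside the pan genes in MC903 skin by 0.30 with no overlap (difference -0.30, described and not tested). With Foxp3, Ctla4 and Il2ra alone, the difference was -0.29. The value takes in Cd6 and Trat1 among the pan genes and Il2rb and Il2ra among the regulatory genes. Each of these had at least 1 Control signal within the TrpnX range. The sign of the value rests on Cd6 (difference 2.14) and Trat1 (2.18). The other pan genes differed by 1.40 (Cd2), 0.997 (Cd3e) and 0.66 (Cd3g), beside 1.18 for the regulatory mean. The value was -0.08 with all probe sets of a gene averaged and -0.56 with a constant of 1. Foxp3 minus Cd3e was -0.84 and -0.70 on the MC903 arrays and -0.92 and -0.53 on the Control arrays, with a difference of -0.05 and overlapping groups (exact permutation p = 1.0, two-sided, adjusted p = 1.0 over 7 tests, where 0.333 is the smallest p that 2 against 2 arrays allow).

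Some of the genes lie side by side in the genome in the RefSeq order of protein-coding genes of GRCm38.p6: Cd3g, Cd3d and Cd3e on chromosome 9, Cd28, Ctla4 and Icos on chromosome 1, Cd5 and Cd6 on chromosome 19, and Il2ra and Il15ra on chromosome 2. Cd28, which encodes the co-stimulatory receptor that shares its ligands with CTLA-4, had 169.8 and 178.1 on the MC903 arrays, against 182.6 and 163.1 on the Control arrays, and overlapped (difference 0.01). Cd5, an inhibitory relative of CD6, had 300.9 and 321.1 on the MC903 arrays, against 276.5 and 305.4 on the Control arrays, and overlapped too (difference 0.09). The difference of Ctla4 exceeded that of Cd28 by 1.64, that of Icos exceeded Cd28's by 0.99 and that of Cd6 exceeded Cd5's by 2.04, each with no overlap between groups and an exact permutation p of 0.333 (adjusted p = 0.467 over the 7 tests). Since Cd6 was within the TrpnX range on both Control arrays, its 2.04 depends on the constant added before the logarithm. The difference of Il2ra exceeded that of Il15ra by 0.57 and that of Cd3d exceeded Cd3g's by 0.60, both with the same p. Il2ra was within the TrpnX range on Control replicate 1, so its 0.57 depends on the constant too. Il2ra minus Il15ra was -3.30 and -3.36 on the MC903 arrays and -4.26 and -3.53 on the Control arrays. The difference of Cd3e exceeded that of Cd3g by 0.34 (exact permutation p = 1.0). Cd3d, the delta chain gene between the other CD3 genes, had 393.5 and 274.4 on the MC903 arrays, against 91.9 and 175.6 on the Control arrays, a difference of 1.26 ± 0.36 (SE, n = 2 per group, limma adjusted p = 0.265).

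**Figure D2:**
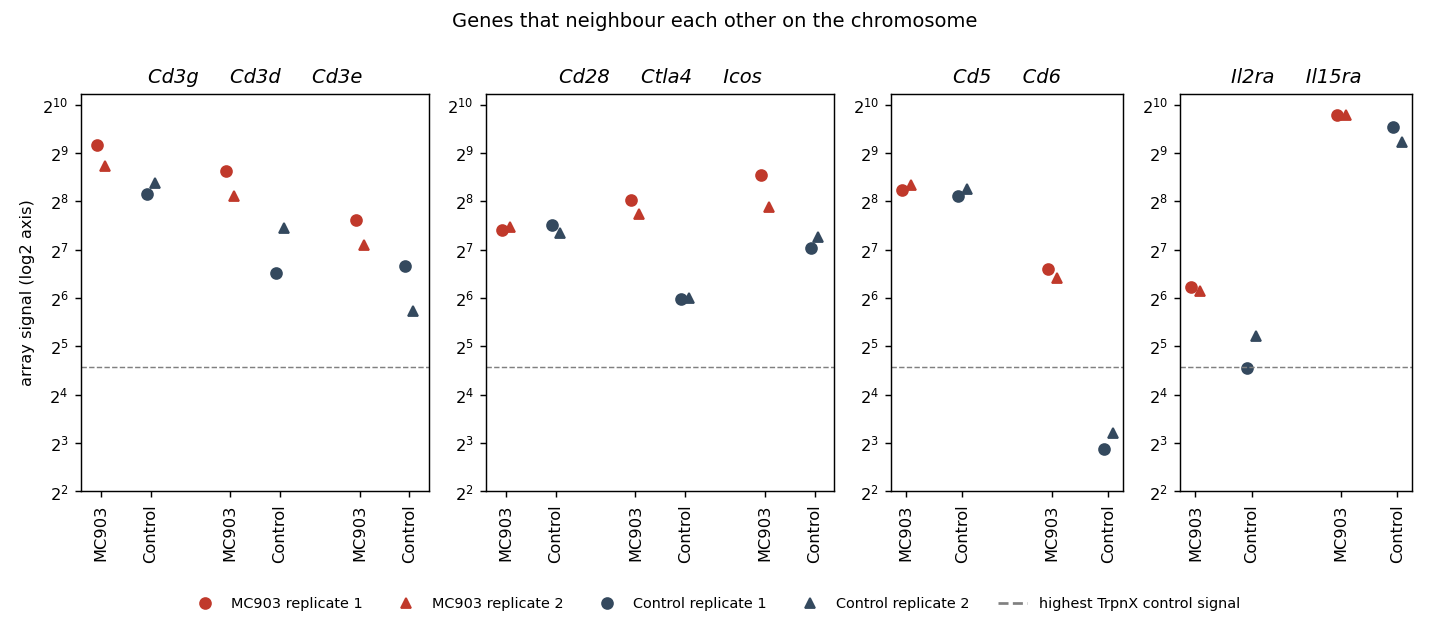
Array signals (log2 axis) of neighbouring genes, MC903 left of Control for each gene, with a dashed line at the highest TrpnX control signal. Levels of different genes come from different probe sets and are not compared. Ctla4, Icos and Cd6 are higher on both MC903 arrays, while Cd28 and Cd5 overlap between groups.

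Windows of 250 bases before to 50 bases after the start of a gene were at hand from RefSeq (GRCm38.p6) for 6 of the 10 genes, Foxp3 having 2. No entry was matched for Cd2, Cd6, Icos and Il2rb. The windows of the neighbouring CD3 genes, of the first Foxp3 start and of Ctla4 and Il2ra are shown. Those of Trat1 and of the second Foxp3 start were searched too but are not printed. Both strands were searched for short motifs, and capitals mark each match, none of which overlapped another. The motif for ETS factors was GGAAGT, that for RUNX factors was TGTGGT and that for GATA factors was AGATAA. The E-box was searched as CAGCTG, the half-site of the vitamin D receptor as AGTTCA and the TATA box as TATAAA.
Cd3g, chr9:44980382-44980681, minus strand: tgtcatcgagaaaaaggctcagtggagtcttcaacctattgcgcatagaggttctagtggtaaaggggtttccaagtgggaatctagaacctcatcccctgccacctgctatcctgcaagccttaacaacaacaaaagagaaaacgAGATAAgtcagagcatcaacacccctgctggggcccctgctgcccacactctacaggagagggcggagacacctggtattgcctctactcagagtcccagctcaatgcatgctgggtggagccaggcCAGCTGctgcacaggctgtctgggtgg
Cd3e, chr9:45009562-45009861, minus strand: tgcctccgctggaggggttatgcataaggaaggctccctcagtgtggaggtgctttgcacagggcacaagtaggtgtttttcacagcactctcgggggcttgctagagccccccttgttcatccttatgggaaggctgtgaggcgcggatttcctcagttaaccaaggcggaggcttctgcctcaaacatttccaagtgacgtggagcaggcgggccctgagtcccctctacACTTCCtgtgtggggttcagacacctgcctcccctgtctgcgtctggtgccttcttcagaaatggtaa
Foxp3, first start, chrX:7579426-7579725, plus strand: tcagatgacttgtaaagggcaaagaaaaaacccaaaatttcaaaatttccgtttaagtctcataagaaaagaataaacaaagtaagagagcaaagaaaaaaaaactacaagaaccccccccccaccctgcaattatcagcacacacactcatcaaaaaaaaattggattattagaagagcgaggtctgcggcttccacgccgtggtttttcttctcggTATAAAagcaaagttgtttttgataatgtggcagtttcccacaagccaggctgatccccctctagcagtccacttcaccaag
Ctla4, chr1:60908775-60909074, plus strand: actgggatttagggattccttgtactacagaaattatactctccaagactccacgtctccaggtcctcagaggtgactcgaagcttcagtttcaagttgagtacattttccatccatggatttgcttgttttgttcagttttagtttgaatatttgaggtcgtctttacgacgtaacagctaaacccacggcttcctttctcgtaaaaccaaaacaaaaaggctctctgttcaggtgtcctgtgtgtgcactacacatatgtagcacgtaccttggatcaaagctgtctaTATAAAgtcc
Il2ra, chr2:11642542-11642841, plus strand: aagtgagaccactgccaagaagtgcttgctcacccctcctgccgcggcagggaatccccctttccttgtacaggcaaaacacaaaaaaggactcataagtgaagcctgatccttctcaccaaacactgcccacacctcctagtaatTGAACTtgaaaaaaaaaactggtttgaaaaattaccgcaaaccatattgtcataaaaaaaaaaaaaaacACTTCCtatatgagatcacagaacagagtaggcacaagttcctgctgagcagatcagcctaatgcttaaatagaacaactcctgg
The ETS letters were in the windows of Il2ra and Cd3e and in 23.8% of 32851 RefSeq promoters. The GATA letters (11.2% of promoters) and the E-box (16.3%) were both in Cd3g and in the second Foxp3 window, and the vitamin D receptor half-site (14%) in Il2ra and the second Foxp3 window. The TATA letters (13.6%) were in Ctla4, Trat1 and the first Foxp3 window, and the RUNX letters (16.8%) in Trat1. These are matches of letters and describe the windows only.

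Of the T cell receptor complex, co-receptors and proximal signalling, 19 of 22 listed genes were measured, and none passed limma's adjusted threshold. In 10 the MC903 arrays were both above the Control arrays (21.6% of all genes), in 3 both below (28.2%) and in 6 they overlapped. The median difference was 0.23. Rhoh, a haematopoietic GTPase of receptor signalling, had 173.0 and 133.0 on the MC903 arrays, against 44.7 and 60.7 on the Control arrays (difference 1.30 ± 0.22 SE, n = 2 per group, limma adjusted p = 0.181). With its probe sets averaged, the difference of Rhoh was 0.49. Lef1, a transcription factor that hair follicle cells also use, went the other way, with 50.02 and 75.3 on the MC903 arrays, against 165.0 and 204.4 on the Control arrays (difference -1.36 ± 0.24, limma adjusted p = 0.187). The CD4 co-receptor gene Cd4 had 18.0 and 67.9 on the MC903 arrays, against 10.3 and 12.8 on the Control arrays, with 3 arrays within the TrpnX range. Cd8a had 80.8 and 264.9 on the MC903 arrays, against 136.0 and 118.5 on the Control arrays, and overlapped.

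Of other regulatory T cell genes, 21 of 23 were measured, and none passed limma's adjusted threshold. Without overlap, 11 were higher (21.6% of all genes) and 2 lower (28.2%), while 8 overlapped, and the median difference was 0.36. Tnfrsf9, which encodes the co-stimulatory receptor 4-1BB, had 519.6 and 206.9 on the MC903 arrays, against 71.0 and 79.2 on the Control arrays (difference 1.92 ± 0.46 SE, n = 2 per group, limma adjusted p = 0.23). Ccr8, a chemokine receptor of skin T cells, had 26.4 and 41.2 on the MC903 arrays, against 2.37 and 1.90 on the Control arrays, and was at least 1.38-fold higher against the highest TrpnX signal. Itgae, which encodes CD103, an integrin that binds E-cadherin on epithelium, had 543.0 and 557.0 on the MC903 arrays, against 275.9 and 336.9 on the Control arrays. All 3 had MC903 signals clear of the Control signals. The difference of Itgae was 0.82, and 0.56 with its probe sets averaged. Tnfrsf18, which encodes GITR, and Tnfrsf4, which encodes OX40, differed by 0.45 and 0.48 (Tnfrsf4 by 0.25 without MC903 replicate 2), while Ikzf2, which encodes Helios, had 1021 and 1141 on the MC903 arrays, against 1291 and 1236 on the Control arrays, and lay lower (difference -0.22, and -0.14 without MC903 replicate 1).

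Of the interleukin-2 family and its signalling, 13 of 14 genes were measured, and none passed limma's adjusted threshold. Without overlap, 6 were higher (21.6% of all genes) and 2 lower (28.2%), while 5 overlapped, and the median difference was 0.29. Il2 itself was within the TrpnX range on 3 arrays. Il7r, which encodes the interleukin-7 receptor alpha chain, had 1055 and 1100 on the MC903 arrays, against 477.5 and 579.6 on the Control arrays (difference 1.01 ± 0.18 SE, n = 2 per group, limma adjusted p = 0.186). Socs3, a feedback inhibitor of cytokine signalling, had 2374 and 1342 on the MC903 arrays, against 479.3 and 719.3 on the Control arrays, and Jak3, the kinase of the shared gamma chain, had 121.2 and 95.02, against 71.8 and 34.2. Both lay higher without overlap, by 1.58 and 0.90, and Jak3 by 0.49 without Control replicate 2.

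Ligands of these receptors on other cells were measured for 7 of 7 genes, and none passed limma's adjusted threshold. Without overlap, 5 were higher (21.6% of all genes) and 1 lower (28.2%), while 1 overlapped, and the median difference was 0.61. Cd86, a ligand of CTLA-4 and CD28, had 331.3 and 392.6 on the MC903 arrays, against 142.6 and 172.8 on the Control arrays (difference 1.12). Pdcd1lg2, which encodes PD-L2, a ligand of PD-1, had 547.1 and 244.1 on the MC903 arrays, against 81.2 and 69.1 on the Control arrays (difference 2.07). Alcam, the CD6 ligand, lay lower, with 392.1 and 442.5 on the MC903 arrays, against 615.5 and 757.2 on the Control arrays (difference -0.69, and -0.44 with probe sets averaged), whereas Cd6 lay higher.

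**Figure D3:**
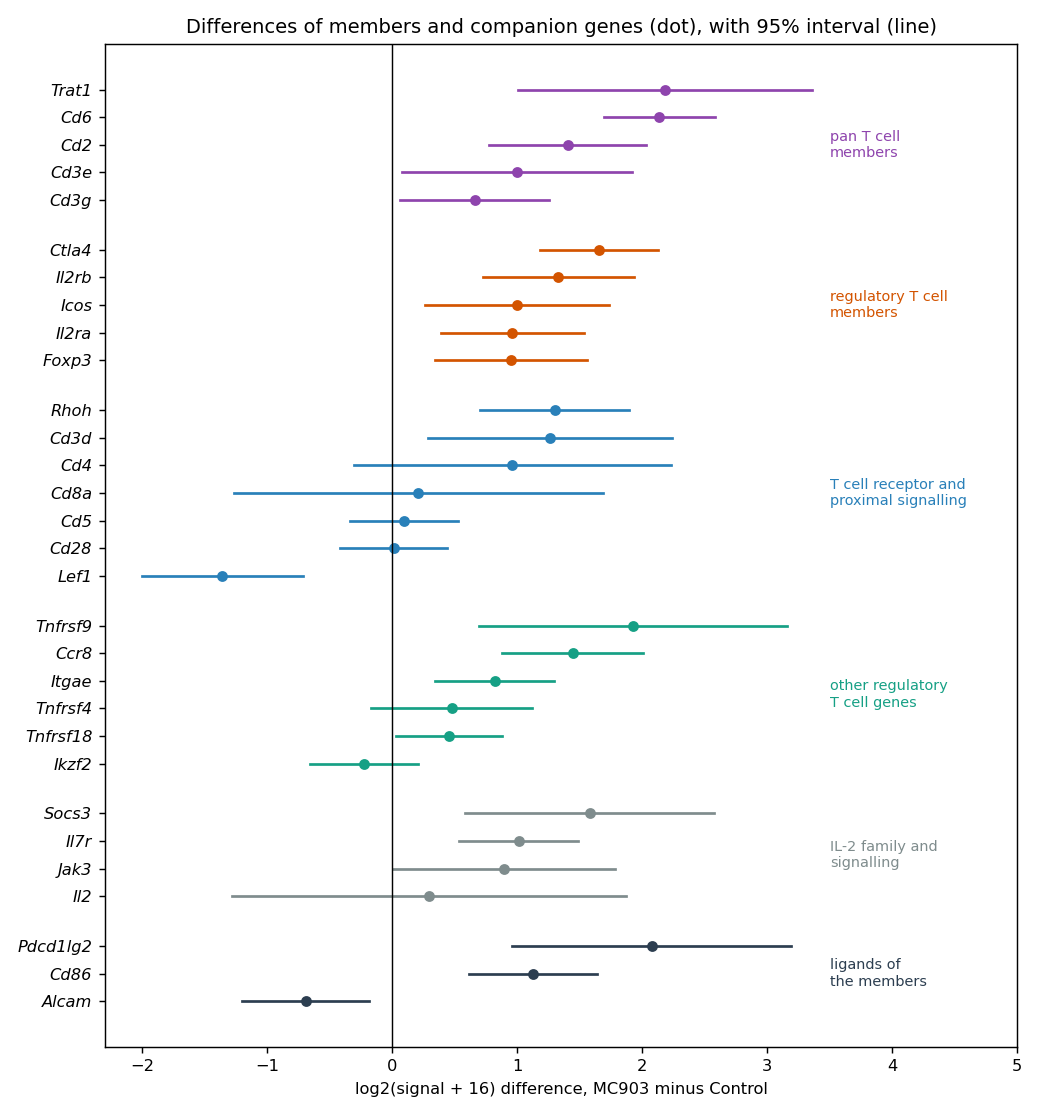
Difference in log2(signal + 16), MC903 minus Control, for the 10 genes and the named companion genes (dots), with the 95% interval of limma (lines), coloured by list. The 10 genes lie between 0.66 and 2.18, with Lef1 (-1.36), Alcam (-0.69) and Ikzf2 (-0.22) on the other side of 0.

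Markers of other cells also stood higher in MC903 skin, with none passing limma's adjusted threshold. Over all genes, 21.6% were higher without overlap and 28.2% lower. Of 7 markers of all leukocytes, 7 were higher without overlap, with a summed signal of 25630 and 13070 on the MC903 arrays and 8839 and 9554 on the Control arrays. Of 7 macrophage markers, 6 were higher and 1 lower, with sums of 37410 and 16050 on the MC903 arrays and 12400 and 10810 on the Control arrays. Neutrophil markers, measured for 4 of 6 genes, had 3 higher, with sums of 1272 and 398.3 on the MC903 arrays and 248.1 and 186.2 on the Control arrays. These lists differed between the MC903 arrays, with a median difference from Control of 1.59 on MC903 replicate 1 and 0.65 on MC903 replicate 2 for leukocytes, 1.67 and 0.45 for macrophages, and 2.19 and 0.81 for neutrophils. The pan T cell genes had 1.42 and 1.38 and the regulatory T cell genes 1.11 and 0.93 on the same arrays. Pan T cell genes minus leukocyte markers, as mean log2 levels, was -3.80 and -3.08 on the MC903 arrays and -4.00 and -3.79 on the Control arrays. Regulatory T cell genes minus leukocyte markers was -4.36 and -3.58 on the MC903 arrays and -4.15 and -4.11 on the Control arrays. The groups overlapped for both, and for the regulatory T cell genes MC903 replicate 1 lay below both Control arrays and MC903 replicate 2 above them.

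The counts without overlap that follow stand beside 21.6% of all genes higher and 28.2% lower. Of lymphoid cells that share genes with T cells, 5 of 7 NK cell markers were higher and 1 lower, with sums of 1023 and 634 on the MC903 arrays and 317.1 and 455 on the Control arrays. Gzma alone made 549.5 and 120.2 of these MC903 sums and 30.77 and 75.6 of the Control sums. The gamma delta and epidermal T cell markers, measured for 4 of 8 genes (Sox13, Cd7, Blk and Xcl1), had 0 higher without overlap and 1 lower. Their sums were 458.3 and 384.1 on the MC903 arrays and 422.1 and 438.2 on the Control arrays. The listed receptor genes Trdc, Trdv4, Tcrg-V5 and Tcrg-C1 were not measured, so the list cannot show whether gamma delta T cells changed. The B cell markers had 2 of 6 higher, with sums of 3353 and 3545 on the MC903 arrays and 2226 and 2000 on the Control arrays. Blnk alone made 3148 and 3333 of these MC903 sums and 2085 and 1853 of the Control sums. Cd79a, a defining B cell gene, was at or under the TrpnX level on all arrays. Type 2 innate lymphoid cell markers, measured for 4 of 6 genes, had 0 higher without overlap and 1 lower. Their sums were 9206 and 13100 on the MC903 arrays and 10590 and 11290 on the Control arrays. Rora alone made 6658 and 10030 of these MC903 sums and 7847 and 7994 of the Control sums. Of 8 dendritic cell markers 5 were higher, with sums of 2607 and 2977 on the MC903 arrays and 2265 and 2588 on the Control arrays. Cd207, which overlapped, made 846.4 and 1459 of these MC903 sums and 1184 and 1655 of the Control sums. Of 7 mast cell markers 2 were higher and 1 lower, with sums of 11120 and 8721 on the MC903 arrays and 8940 and 7896 on the Control arrays. Lymph node stroma and follicle markers, measured for 3 of 5 genes, had 2 higher and 1 lower, with sums of 341.5 and 458.0 on the MC903 arrays and 482.0 and 735.7 on the Control arrays. Cxcl13, the lower gene, made 246.0 and 388.3 of these MC903 sums and 476.1 and 701.7 of the Control sums. The part of these cells in the differences of the 10 genes was not tested.

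**Figure D4:**
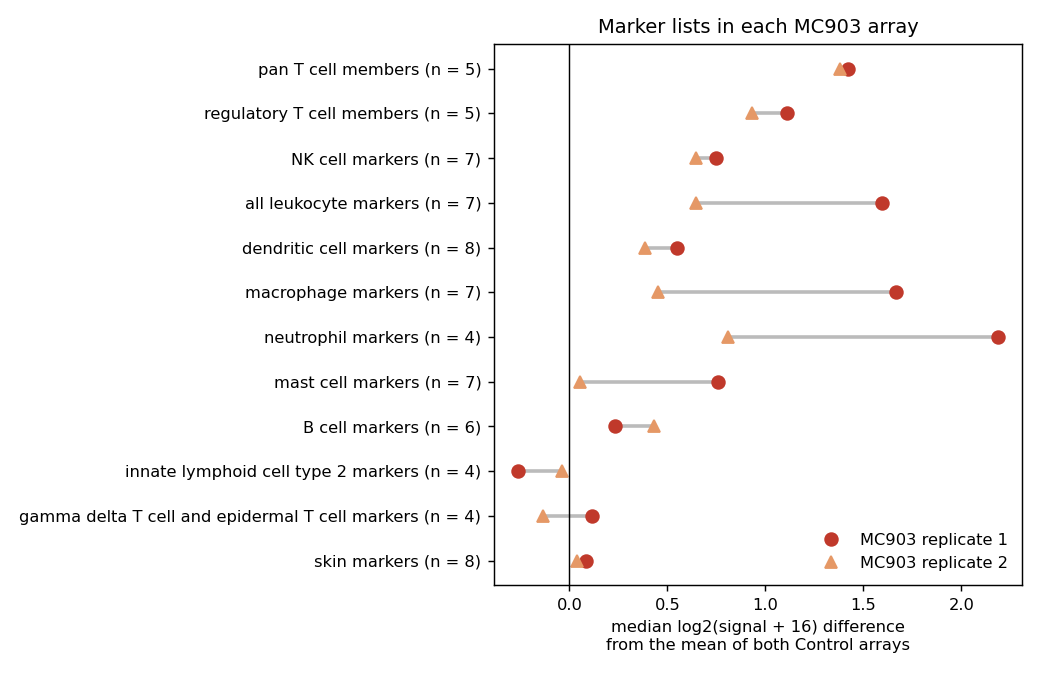
Median difference in log2(signal + 16) of each list on MC903 replicate 1 (circles) and MC903 replicate 2 (triangles) from the mean of both Control arrays. The pan T cell genes are at 1.42 and 1.38, close together, while the macrophage markers are at 1.67 and 0.45.

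Over 13695 genes above the TrpnX level on all 4 arrays, likeness to the mean centred profile of a group was measured as root mean square distance over the 4 arrays. Nearest to the pan T cell profile were Mxd1 (0.0382), AW112010 (0.0721), Tmem229b (0.0813), Lipg (0.0872) and Serpinb11 (0.0886). Nearest to the regulatory T cell profile were Slc27a3 (0.0234), Urah (0.0397), Krt84 (0.0532), Myo1g (0.0538) and Csta1 (0.0539). The genes' own distances were larger, from 0.12 for Cd2 to 0.49 for Trat1 among pan T cell genes and from 0.169 for Il2ra to 0.242 for Ctla4 among regulatory T cell genes. The nearest genes were picked as the smallest distances of 13695, so this does not show that they follow T cells more closely.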

How the data were processed

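Per the labels' protocols, 200 ng of total RNA from treated mouse skin was biotin-labelled and put on a 3′ array. The authors deposited linear intensity values for 45101 probe sets on 4 arrays. Which software made them is not given here. Trimmed of 2% at either end, each deposited array had a mean of 500, so the intensity values had been scaled. The deposited values carried no detection calls, and the 3 TrpnX control probe sets (1.55 to 24.0) served as a guide to background. Probe sets were named from the platform annotation, with symbols updated through the Entrez ID to RefSeq's GRCm38.p6 table. Of the probe sets, 34945 had 1 gene symbol, 932 had several and 9160 were not listed. For each of 18193 genes, the probe set whose log2(signal + 16) averaged highest was kept. The comparison of MC903 with Control used limma 3.58.1 under R 4.3.3 (linear model and moderated variance, constant prior variance, two-sided, Benjamini-Hochberg over all genes, threshold 0.05), with 2 residual and 2.32 prior degrees of freedom. The fit was also run on simulated data with independent errors and a spread drawn from the fit itself. That run cannot show how well the model suits these arrays. No filter was applied. The number of arrays limits the precision. Alternatives were quantile normalization, median centring, constants of 1 and 64, a filter on dim genes, averaged or single probe sets, the probe set with the highest linear mean, a prior that follows the signal, a block on the replicate number and the omission of each array. The members, the companion and marker lists and the tests were chosen with earlier results of these data known. All members were named, and of each companion list the 3 largest differences among genes above background in both arrays of a group, plus 11 genes listed by name where measured (Cd4, Cd8a, Cd28, Cd5, Ikzf2, Tnfrsf18, Tnfrsf4, Il2 and Il7r were). The labels share replicate numbers between groups without stating a pairing.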

Additional observations from a re-analysis of the deposited data

How the results depend on the processing

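Dim signals in Control skin limit the values of Cd6, Il2rb, Trat1 and Il2ra. With constants of 64 and 1, Cd6 was 1.10 and 3.31 and Trat1 1.19 and 3.42, and with 64 Foxp3 was 0.58, Il2ra 0.54 and Il2rb 0.71. None of the 10 genes reversed in 170 combinations of gene and setting. Because their groups did not overlap, leaving out an array or changing the constant could not reverse any of them. Nor could the other prior, the replicate block or the filter, which leave the difference as it is. The count therefore tests only the normalization and the choice of probe set. Over all genes, limma called 0, against 3 with arrays centred on their medians, 70 with a constant of 64, 36 with the dimmest 25% left out, 12 with probe sets averaged and 168 with a prior that follows the signal. Chosen after seeing the data, the probe set with the highest linear mean gave 5, and the prior that follows the signal gave 5 to 946 over the fits without 1 array each (227 without MC903 replicate 1, 946 without MC903 replicate 2, 15 without Control replicate 1, 5 without Control replicate 2). Of the 10 genes, 1 was called with the dimmest genes left out (Cd6, adjusted p = 0.0314 by limma) and 1 with that prior (Cd6), where leaving out an array gave 0 to 2 (Cd6 and Ctla4 without MC903 replicate 2). Companion genes called then numbered 0 to 4 (Lcp2, Tnfrsf9, Socs3 and Pdcd1lg2 without MC903 replicate 2). The median difference of the pan T cell genes (1.40) was 1.10 with a constant of 64, 1.16 with probe sets averaged and 1.38 to 1.66 without 1 array. That of the regulatory T cell genes (0.996) was 1.28 with a constant of 1, 0.71 with 64, 1.14 with probe sets averaged and 0.93 to 1.18 without 1 array. Regulatory minus pan T cell genes (-0.30) was -0.56, -0.17 and -0.084 under the same 3 settings and -0.38 to -0.21 without 1 array. Foxp3 minus Cd3e (-0.05) was 0.055 with a constant of 1 and -0.24 to 0.15 without 1 array (0.03 without MC903 replicate 1, 0.15 without Control replicate 2). Among the companion genes, Cd28 (0.01) was -0.058 with probe sets averaged and -0.065 to 0.085 without 1 array (-0.022 without MC903 replicate 2, -0.065 without Control replicate 2), with either prior. Cd8a (0.21) was -0.56 to 0.97 without 1 array (-0.56 without MC903 replicate 2). Il2 (0.29) was -0.38 to 0.96 without 1 array (-0.38 without MC903 replicate 2, -0.20 without Control replicate 1). The cause was not tested. With 2 arrays a group, replicate 2 deviates from the group mean as far as replicate 1, with opposite sign. The correlation between arrays of the same number is therefore a single value, equal for both numbers by construction (r = -0.06). It gave no sign that such arrays deviated together. With the replicate block limma called 0 genes.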
